A study of Oryzias latipes with 27 samples.

Results

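A set of 100 genes of the medaka (Oryzias latipes) gonad transcriptome were higher in both kinds of ovary than in the testis at 30 days post hatch (D30), and higher in the testis than in both kinds of ovary at 120 days post hatch (D120). They were the 100 highest of 26099 genes by a score computed from the deposited FPKM values, which are fragments scaled for exon length and for the total count of the library. At D30 the lower of the ovary means plus 1 was divided by the testis mean plus 1. At D120 the testis mean plus 1 was divided by the higher of the ovary means plus 1. The score is the smaller of these ratios on the log2 scale. Of all genes, 884 had a score above 0.

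The gonads came from 3 kinds of fish at D10, D30 and D120, with 3 libraries in each of the 9 groups. WT_Fe_Ov is the ovary of wild type females, and WT_Ma_Te is the testis of wild type males, which carry the sex determination gene DMY on the Y chromosome. MT_Fe_Ov is the ovary of XY fish in which DMY was mutated with TALENs and which develop as females. The mutants came from an inherited line and all fish were kept at 28.5 °C, and the D10 samples held the gonadal primordium with the adjacent tissue of the trunk, so that a D10 value is not a value of gonad alone. The labels call the replicates biological but do not say how many fish each library held.

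As background, germ cells of the ovary enter meiosis early in medaka and grow as oocytes, which store messenger RNA and proteins for the egg and the embryo. Germ cells of the testis enter meiosis later, and the adult testis holds spermatogonia, spermatocytes and spermatids together. Oocytes and male germ cells both use the machinery of chromosome segregation and both hold back the translation of stored messenger RNA, so that a gene with these roles can be abundant in either gonad. In bulk tissue, fewer cells of a type and less RNA per cell cannot be told apart.

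Total counts ranged from 5551651 to 17586392 per library. The TMM factors of edgeR, which rescale a library for its RNA composition, were 0.740 to 0.802 in the D30 ovaries and 1.49 to 1.50 in the D30 testes, and the deposited FPKM hold no such factor. The D30 testis libraries also had shorter read pairs than the other libraries in the study's sequencing record, so that the effects of tissue and of read length are confounded at D30 and cannot be told apart. Markers of other organs were checked as sums of FPKM. The 4 liver genes found of 16 listed summed to 225 to 1630 in the D10 libraries. In the D30 testes they summed to 164 to 181 against 1.62 to 12.8 in the D30 ovaries, of which rbp4 alone made a mean of 168, while fga, fgb and fgg were at 0.602 or less there. The 5 immune genes found of 15 summed to 540 to 565 in the D30 testes against 8.79 to 76.3 in the D30 ovaries, with cd74 at a mean of 504 in the testes. The single exocrine pancreas gene found of 20, cpb1, was at 349 to 417 in the D30 testes against 0.263 to 132 in the D30 ovaries. At D120 the 5 kidney genes found of 7 summed to 2.02 to 92.7 across the testis libraries, against 1.44 to 2.38 in the ovaries. The 2 intestine genes found of 8 summed to 4.19 to 31.5 in the D120 testes, against 0.0268 to 0.734 in the D120 ovaries. The part of these genes in the results was not tested. None of the marker genes was among the 100 genes.

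The scores ran from 0.58 to 1.54 with a median of 0.70, where the median over all genes was -0.96. The D30 difference had a median of 0.81 and the D120 difference a median of 0.92, on the log2 scale of FPKM plus 1. At D30 both ovary means were at least 2 times the testis mean for 43 genes, against 9.43% of all genes, and at D120 the testis mean was at least 2 times both ovary means for 47, against 39.2% of all genes. The D30 difference was the smaller and set the score in 59. These values chose the genes and are given with no test. The last genes taken were LOC101163742, aspscr1 and LOC101155285, each with a score of 0.58, and the next genes, trpv4, baz1a and brap, each had a score of 0.57.

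**Figure D1:**
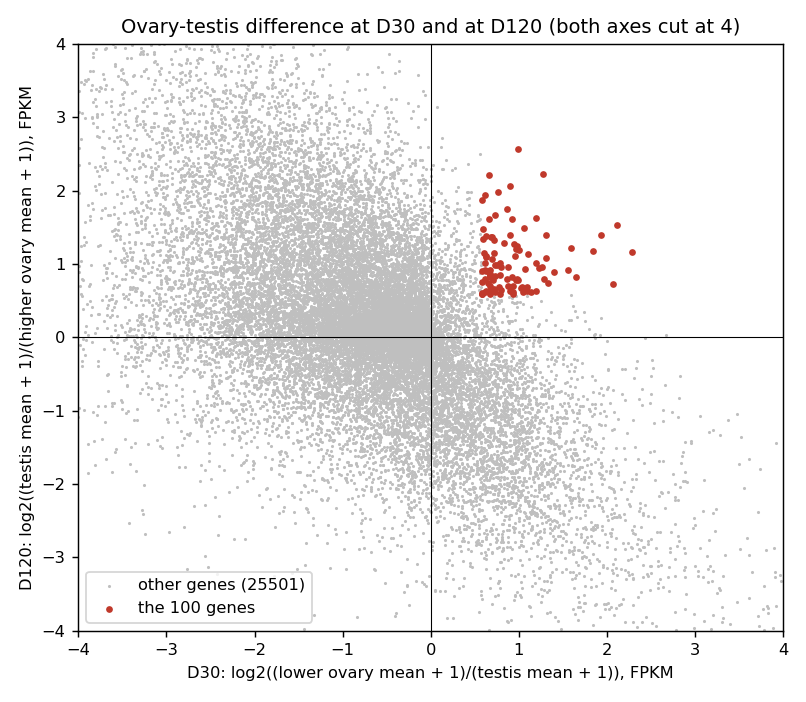
Each point is a gene with at least 1 count. The x axis gives the lower ovary mean over the testis mean at D30 and the y axis the testis mean over the higher ovary mean at D120, both as log2 of FPKM plus 1. The 100 genes lie in the upper right corner, at 0.58 or more on both axes.

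The separation was also seen library by library. At D30, every ovary library exceeded every testis library for 90 of the 100 genes, against 13.6% of all genes. At D120, every testis library exceeded every ovary library for 96 genes, against 40.6%, and both held for 88 genes, against 1.11%. The rule used the same libraries, so nothing is read from these counts. The 12 genes that overlapped at a stage in the deposited FPKM included mir103-2, LOC105358284, LOC101157524, inpp5b, pask, LOC101155876, lin7c, grk3, LOC101166495, kat2a and pcnx1. The direction of LOC101155876 at D120 rested on 1 library, with 0, 0.166 and 12.2 FPKM in the testis against 0.667 to 3.50 in the ovaries, and its score was -1.61 without WT_Ma_Te replicate 3.

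At D10 the median FPKM over the 100 genes was 7.73 for WT_Fe_Ov, 7.74 for MT_Fe_Ov and 8.95 for the testis. It was 21.4 in D30 WT_Fe_Ov and 22.7 in D30 MT_Fe_Ov, but 9.65 in D30 WT_Ma_Te. At D120 it was 11.0 in WT_Fe_Ov, 11.5 in MT_Fe_Ov and 25.6 in WT_Ma_Te. The median over all genes went the other way at D30, with 1.03 and 0.975 in the ovaries and 4.28 in the testis.

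The testis mean was higher at D120 than at D30 for 97 of the 100 genes, against 34.8% of all genes. Both D120 ovary means were below both D30 ovary means for 88 genes, against 22.9%, and both D30 ovary means were above both D10 ovary means for 84, against 31.5%. The highest of the 9 group means was the D120 testis for 55 genes, against 18.8% of all genes. It was D30 MT_Fe_Ov for 21, against 5.3%, D30 WT_Fe_Ov for 14, against 5.36%, and a D10 group for the other 10. The D30 testis had the lowest of the 9 means for 25 genes, against 2.37% of all genes. The rule used the D30 and D120 means, so nothing is read from these counts either.

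**Figure D2:**
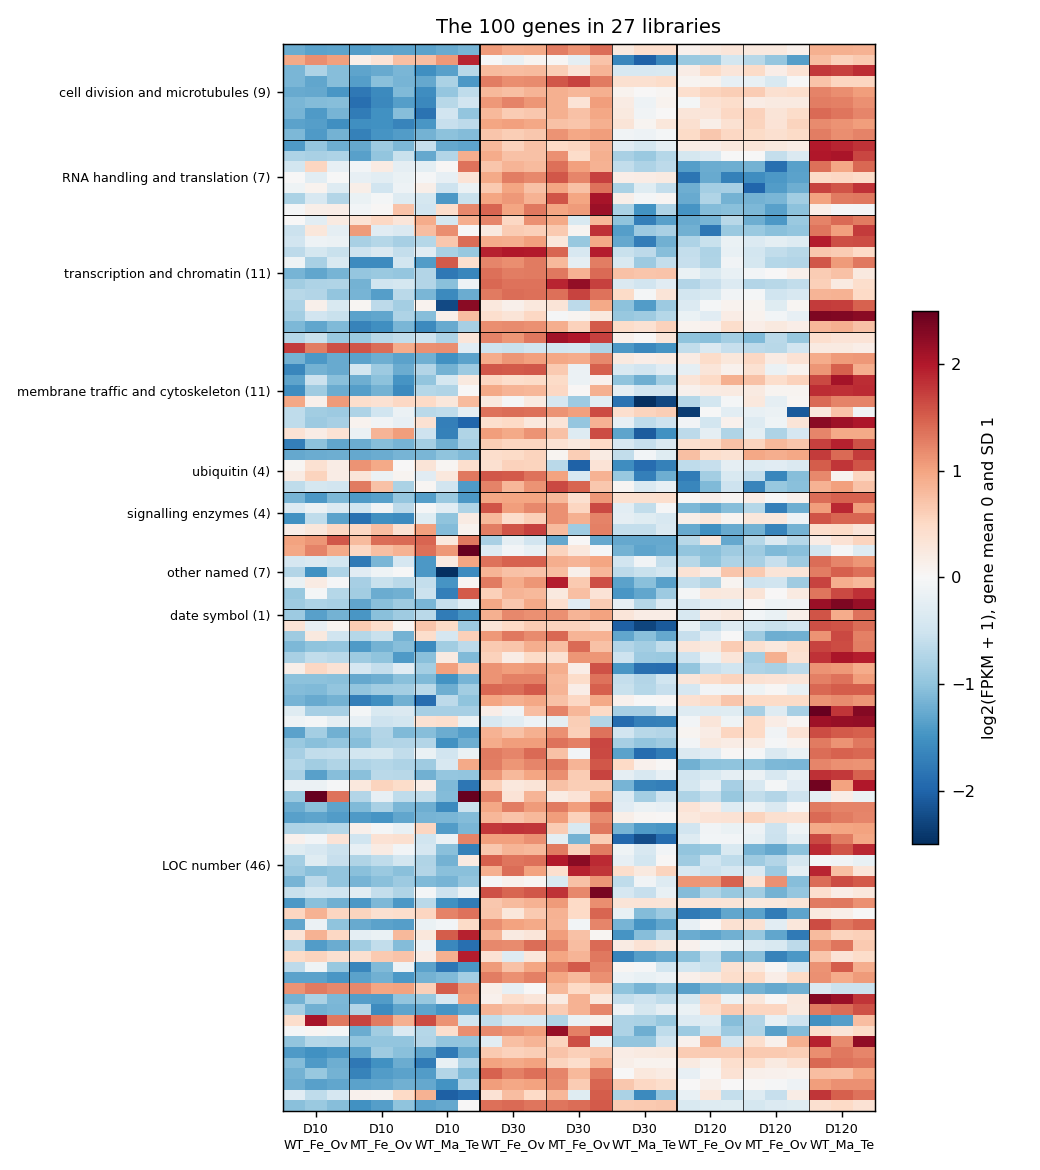
Rows are the 100 genes, grouped by known role, and columns are the 27 libraries, in threes by group. Colour gives log2 of FPKM plus 1, with each gene set to mean 0 and SD 1. Most rows are red in the D30 ovaries and the D120 testis and pale or blue elsewhere, and a few are red at D10.

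Of the 100 genes, 53 had a gene symbol, 46 had only a LOC number and 1 had a symbol that the deposited tables had turned into a date, which is not named. In the RefSeq annotation of ASM223467v1, 95 were protein-coding, 3 were long non-coding RNAs and 1 was a microRNA gene. The 53 were sorted by known role, after they had been chosen. Of these, 9 act in cell division or on microtubules, 7 in RNA handling and translation, 11 in transcription and chromatin, 11 in membrane traffic and the cytoskeleton, 4 in ubiquitin transfer or removal and 4 in signalling, with 7 others. The share of these roles among all genes was not counted, so the groups only order the description.

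In the cell division group the median D30 difference was 0.97 and the median D120 difference 0.99. The highest score of a named gene, 1.31, was that of fbxo43, whose product inhibits the anaphase-promoting complex and holds frog and mouse eggs in the second meiotic division. At D30 its FPKM was 39.2, 31.7 and 32.7 in WT_Fe_Ov, 54.3, 42.1 and 63.6 in MT_Fe_Ov and 11.0, 14.5 and 14.6 in the testis. The D120 values were 8.996, 11.1 and 12.03 in WT_Fe_Ov, 11.0, 11.1 and 9.06 in MT_Fe_Ov and 29.9, 29.6 and 29.5 in the testis. The gonads did not overlap at either stage, and the D120 testis stayed below every D30 ovary. At D10 no library exceeded 0.542.

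The chromokinesin gene kif22, whose product pushes chromosomes along spindle microtubules, had the highest D30 ovary mean of the 100 genes. Its FPKM at D30 was 138, 124 and 126 in WT_Fe_Ov, 190, 217 and 143 in MT_Fe_Ov and 53.5, 53.2 and 57.4 in the testis. By D120 the FPKM was 36.7, 38.1 and 27.1 in WT_Fe_Ov, 28.2, 22.4 and 34.2 in MT_Fe_Ov and 74.9, 62.4 and 62.7 in the testis. As with fbxo43, both ovaries were lower at D120 than at D30 in every library.

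The group genes, stil, cep295 and poc5, encode centriole proteins, STIL acting in centriole duplication, CEP295 in the conversion of a centriole to a centrosome and POC5 in the assembly of its distal part. The FPKM of cep295 at D30 was 28.8, 32.2 and 29.2 in WT_Fe_Ov, 24.8, 16.4 and 28.0 in MT_Fe_Ov and 14.8, 11.6 and 13.6 in the testis. At D120 it was 12.3, 16.7 and 17.8 in WT_Fe_Ov, 14.8, 15.0 and 15.0 in MT_Fe_Ov and 33.2, 32.7 and 30.0 in the testis. The second D30 MT_Fe_Ov library was low and came closest to the testis. The scores of stil and poc5 were 0.78 and 0.73.

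The group also held knl1, the scaffold of the outer kinetochore, and cep95, which encodes a centrosomal protein, with scores of 0.73 and 0.69. The microtubule genes camsap1 and mtus1 had scores of 1.08 and 1.06. CAMSAP1 binds the minus ends of microtubules, and its gene had higher means at D10 than in the later ovaries, with 13.1 in WT_Fe_Ov, 9.13 in MT_Fe_Ov and 15.2 FPKM in the testis. The product of mtus1 also binds microtubules, and its D120 testis FPKM of 56.7, 54.4 and 59.8 exceeded the 17.2 to 21.9 of the D120 ovaries and the 19.6 to 28.8 of the D30 ovaries.

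Other genes of these structures were read from lists drawn up after the 100 genes were known. Of 15 further centriole assembly genes, edgeR called 4 higher in ovary and 2 higher in testis at D30, where 22% of all genes were called higher in ovary and 36.5% higher in testis. At D120 it called 0 higher in ovary and 8 higher in testis, against 23.8% and 32% of all genes. Of 11 further kinetochore and checkpoint genes, 3 and 0 were called at D30 and 1 and 4 at D120. None of these 26 genes had both an ovary call at D30 and a testis call at D120, which 0.935% of all genes had. At that share nothing is read from the absence. A call needed a log2 fold change of 1 with TMM factors, whereas the 100 genes had scores of 0.58 or more in FPKM without them. Among the genes short of the D30 call, bub1 was at 0.94 and rttn at 0.86, and both were called higher in testis at D120. These genes were picked after their values were seen. By contrast, nsl1 was at 0.90 at D30 and 0.18 at D120 with no call, and poc1b was at -0.73 at D30. The median D30 log2 fold change was 0.49 over the 15 centriole genes. It was -0.14 over the 11 kinetochore and checkpoint genes and -0.53 over all genes.

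**Figure D3:**
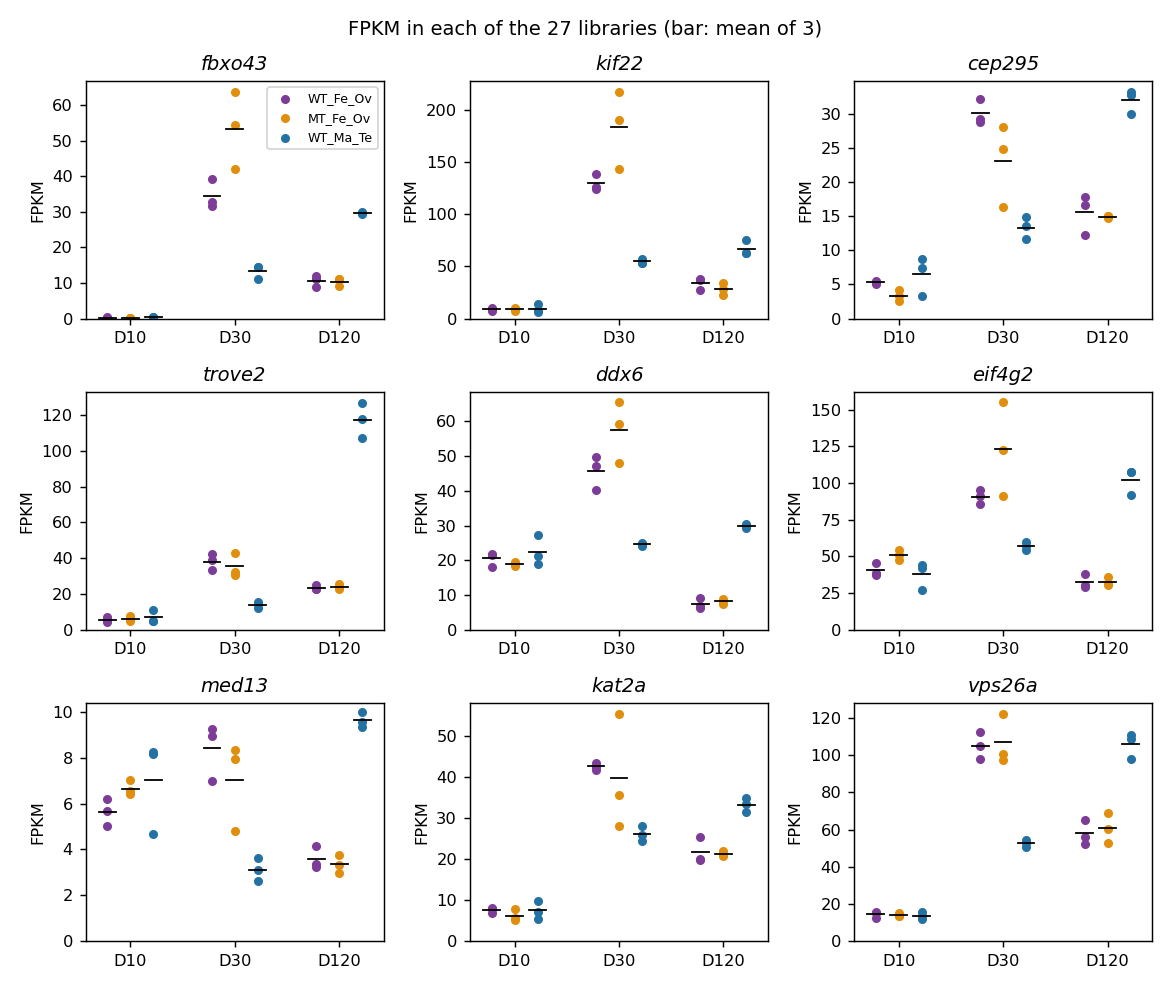
FPKM on the y axis by stage on the x axis for 9 of the 100 genes, with a point for each library and a bar for the mean of 3. In every panel the D120 testis lies above both D120 ovaries, while the D30 testis lies below the D30 ovaries in all panels except kat2a, where it overlaps 1 MT_Fe_Ov library.

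In the RNA handling and translation group the median D120 difference was 1.61 and the median D30 difference 0.93. The gene with the highest D120 value here was trove2, which encodes the Ro60 protein that binds Y RNAs and misfolded small RNAs. Its D30 FPKM was 42.1, 33.5 and 38.7 in WT_Fe_Ov, 30.8, 32.3 and 43.1 in MT_Fe_Ov and 14.4, 12.4 and 15.2 in the testis. At D120 the testis had 127, 118 and 107, against 22.9, 22.7 and 24.8 in WT_Fe_Ov and 25.5, 24.2 and 22.8 in MT_Fe_Ov. The D120 testis thus exceeded every other library.

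The RNA helicase gene ddx6 acts in messenger RNA decapping and in the translational repression of stored transcripts. Its FPKM at D30 was 40.3, 49.8 and 47.2 in WT_Fe_Ov, 59.1, 48.0 and 65.5 in MT_Fe_Ov and 24.3, 24.4 and 25.1 in the testis. The D120 values were 6.21, 9.27 and 6.83 in WT_Fe_Ov, 7.50, 8.21 and 8.77 in MT_Fe_Ov and 29.9, 30.5 and 29.2 in the testis. In these FPKM, which hold no TMM factor, the testis libraries were within 24.3 to 30.5 at both stages. Every D120 ovary library was below every D10 and D30 library.

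The D120 ovaries were also below the D30 ovaries for eif4g2, which encodes a translation initiation factor without the cap-binding contact of eIF4G. At D30 its FPKM was 91.0, 95.6 and 85.8 in WT_Fe_Ov, 123, 91.0 and 156 in MT_Fe_Ov and 59.7, 54.5 and 56.8 in the testis. By D120 the FPKM was 29.5, 38.0 and 30.6 in WT_Fe_Ov, 30.7, 31.1 and 35.9 in MT_Fe_Ov and 91.9, 107 and 107 in the testis. The group also held mknk1, a kinase of the cap-binding factor eIF4E, cstf3, a subunit of the cleavage stimulation factor, dhx57, a putative RNA helicase, and smg1, a kinase of nonsense-mediated decay. Their scores were 0.93, 0.70, 0.94 and 0.63.

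A further 12 genes of decapping and translational repression were also listed after the 100 genes were known. At D30, 6 of them were called higher in ovary and 1 in testis, against 22% and 36.5% of all genes. At D120, 3 were called higher in ovary and 5 in testis, against 23.8% and 32%. Both calls were made for cnot1, the scaffold of the deadenylase complex, and xrn1, the 5′ to 3′ exonuclease, as they were for 0.935% of the genes tested at both stages. For cnot1 the D30 MT_Fe_Ov replicate 2 library was at 105 CPM scaled by TMM, below the D30 testis at 131 to 157, while the other D30 ovaries were at 229 to 381. At D30 cnot1 was higher in ovary by 1.06 ± 0.33 on the log2 scale (SE, 6 against 3 libraries, edgeR adjusted p = 0.0108), and at D120 its log2 fold change was -1.28 ± 0.09 (edgeR adjusted p = 1.24e-08). For xrn1 the values were 1.20 ± 0.19 (edgeR adjusted p = 8.31e-05) and -1.12 ± 0.09 (edgeR adjusted p = 5.82e-08). These calls used TMM factors, which the FPKM that chose the 100 genes do not hold. The size of both D30 differences therefore depends on the scaling. So does the D30 order of MT_Fe_Ov and testis for cnot1, and that of WT_Fe_Ov and testis for xrn1.

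The 11 transcription and chromatin genes had lower differences, with medians of 0.68 at D30 and 0.80 at D120. The highest score, 0.97, was that of med13, a subunit of the kinase module of Mediator. At D30 its FPKM was 9.27, 7.01 and 8.98 in WT_Fe_Ov, 8.37, 4.80 and 7.97 in MT_Fe_Ov and 3.65, 2.61 and 3.09 in the testis. At D120 it was 3.25, 3.38 and 4.17 in WT_Fe_Ov, 3.31, 2.98 and 3.77 in MT_Fe_Ov and 9.36, 10.0 and 9.55 in the testis.

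This group held 2 genes of the histone acetyltransferase complexes SAGA and ATAC, kat2a, the catalytic subunit, and zzz3, a subunit of ATAC. At D30 kat2a was at 42.5, 43.4 and 41.7 FPKM in WT_Fe_Ov, 35.5, 27.9 and 55.3 in MT_Fe_Ov and 25.7, 24.4 and 28.0 in the testis. In these FPKM, which hold no TMM factor, the second MT_Fe_Ov library overlapped the testis. The D120 values were at 33.4, 34.8 and 31.3 in the testis and 19.7 to 25.2 in the ovaries. For zzz3 the D30 testis was at 7.67, 7.29 and 5.80, against 26.6, 27.8 and 27.5 in WT_Fe_Ov and 21.2, 8.29 and 27.1 in MT_Fe_Ov. The second MT_Fe_Ov library was again near the testis. A further 11 genes of these complexes were listed after the chosen genes were known. At D30, 6 of them were called higher in ovary and 0 in testis, against 22% and 36.5% of all genes. At D120, 4 were called higher in ovary and 0 in testis, against 23.8% and 32%. For yeats2 the log2 fold change, ovary over testis, was 1.42 ± 0.13 at D30 (SE, edgeR adjusted p = 5.15e-07). At D120 it was -0.88 ± 0.12 (edgeR adjusted p = 2.27e-05), short of the size needed for a call. This gene was picked after its values were seen.

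The gene of the TATA-binding protein, tbp, was at 21.2 to 35.2 in the D30 ovaries and 17.8 to 18.5 in the D30 testis, and at 6.17 to 10.2 in the D120 ovaries and 11.6 to 18.5 in the D120 testis. The gene of the corepressor CoREST, rcor1, had its highest values in D30 MT_Fe_Ov, at 51.4, 58.8 and 47.1, against 40.1 to 41.3 in D30 WT_Fe_Ov and 17.1 to 18.8 in the D30 testis. The zinc finger gene prdm10 had its highest values in the D120 testis, at 19.5, 19.3 and 18.8, against 5.58 to 7.06 in the D120 ovaries.

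The membrane traffic and cytoskeleton group had median differences of 0.87 at D30 and 0.82 at D120. The retromer gene vps26a was at 98.1, 112 and 105 FPKM in D30 WT_Fe_Ov, 101, 97.5 and 123 in D30 MT_Fe_Ov and 54.6, 50.6 and 53.0 in the D30 testis. By D120 the FPKM was at 52.4, 65.1 and 56.2 in WT_Fe_Ov, 68.7, 52.6 and 60.6 in MT_Fe_Ov and 97.8, 109 and 111 in the testis. In these FPKM, which hold no TMM factor, the D30 ovaries and the D120 testis thus overlapped, and so did the D30 testis and the D120 ovaries. The TMM factors were 1.49 to 1.50 in the D30 testis and 1.09 to 1.16 in the D120 testis. They were 0.740 to 0.802 in the D30 ovaries and 0.871 to 0.929 in the D120 ovaries, so the overlap depends on the scaling.

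For atl2, whose product fuses membranes of the endoplasmic reticulum, the D30 values were 19.9, 17.97 and 20.9 in WT_Fe_Ov, 35.6, 33.1 and 27.4 in MT_Fe_Ov and 9.08, 8.42 and 10.3 in the testis. At D120 they were 3.49 to 4.99 in the ovaries and 11.1, 10.5 and 10.6 in the testis. The actin-associated PDZ-LIM gene pdlim7 differed from these by its high D10 level. It was at 139, 89.5 and 123 in WT_Fe_Ov, 118, 99.5 and 64.6 in MT_Fe_Ov and 78.8, 80.5 and 20.6 in the testis. The 6 skeletal muscle genes found of 18 listed summed to 5659 to 14099 FPKM in the D10 libraries, and the part of muscle in the pdlim7 level was not tested. At D30 pdlim7 was at 12.9 to 17.9 in the ovaries and 5.44 to 6.56 in the testis.

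Among the signalling genes, pask, which encodes a PAS domain kinase, was at 18.8, 19.0 and 18.9 in D30 WT_Fe_Ov, 15.6, 9.47 and 21.3 in D30 MT_Fe_Ov and 9.35, 9.31 and 9.60 in the D30 testis. At D120 it was at 31.1, 33.7 and 33.8 in the testis and 5.52 to 6.93 in the ovaries. In FPKM, without a TMM factor, the second D30 MT_Fe_Ov library lay within the range of the D30 testis.

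The microRNA gene mir103-2 rested on few reads. It had 0 counts in each D30 testis library, 1, 3 and 2 in D30 WT_Fe_Ov and 0, 2 and 0 in D30 MT_Fe_Ov, so that no D30 difference was detectable at this depth, and its score was 0 without D30 MT_Fe_Ov replicate 2. At D120 it had 6, 6 and 8 counts in the testis and 0 to 5 in the ovaries. Its annotated position lies within LOC101161204, and these poly(A) libraries do not measure mature microRNAs.

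The highest scores of all, 1.54 and 1.39, were those of LOC101163326 and LOC101168884. The FPKM of LOC101163326 was 3.78, 4.22 and 4.65 in D30 WT_Fe_Ov, 4.43, 4.41 and 3.995 in D30 MT_Fe_Ov and 0.276, 0.103 and 0.237 in the D30 testis. The D120 values were 8.76, 8.57 and 7.69 in the testis and 1.78 to 2.57 in the ovaries. Among the genes with the highest levels, LOC101156678 reached 223, 228 and 232 in the D120 testis, against 81.4 to 107 in the D120 ovaries, 60.8 to 113 in the D30 ovaries and 35.2 to 39.3 in the D30 testis. LOC101175356 reached 122, 146 and 130 in the D120 testis, against 67.8 to 70.5 in the D120 ovaries. LOC101155449 was at 137, 139 and 138 in D30 WT_Fe_Ov, 81.3, 50.8 and 111 in D30 MT_Fe_Ov and 31.0 to 35.4 in the D30 testis.

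The levels at D10 were not used to choose the genes, and the ovary and testis samples were compared there by edgeR (quasi-likelihood), with p-values adjusted over all genes tested after Benjamini and Hochberg. With 6 ovary and 3 testis libraries, 0 of the 100 genes passed an adjusted p of 0.05 and a log2 fold change of 1 in size, as 0.254% of all genes did. At an unadjusted p under 0.05 there were 14, where 21.8% of all genes had one, and DESeq2 called 2, against 5.93% of all genes. The median log2 fold change, ovary over testis, was -0.08 over the 100 genes and 0.01 over all genes, with 40 genes above 0 and 60 below.

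The gene with the lowest adjusted p was sec16a, an organizer of the exit sites of the endoplasmic reticulum. Its D10 FPKM was 10.4, 9.90 and 10.4 in WT_Fe_Ov, 8.97, 12.05 and 12.8 in MT_Fe_Ov and 8.01, 5.54 and 7.45 in the testis, and its log2 fold change was 0.73 ± 0.17 (SE, edgeR adjusted p = 0.0830). For spag1, needed for the assembly of axonemal dynein arms in humans, the D10 FPKM was 11.9, 7.86 and 11.7 in WT_Fe_Ov, 14.9, 16.3 and 17.2 in MT_Fe_Ov and 8.18, 4.23 and 7.65 in the testis, with a log2 fold change of 1.12 ± 0.29 (edgeR adjusted p = 0.0869). DESeq2 called spag1 higher in ovary and poc5 lower.

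The result rested on 1 library. Without D10 WT_Ma_Te replicate 1, edgeR called 8 of the 100 genes, with 4 higher in ovary (spag1, LOC101167518, lin7c and tbp) and 4 lower (LOC101162023, LOC101165662, LOC101164373 and poc5), and called 3907 genes in all instead of 63, which is 15.8% of the genes tested. The D10 libraries also differed in other tissue. The 4 liver genes summed to 225 to 1576 FPKM in the testis libraries, 784 to 1381 in WT_Fe_Ov and 1259 to 1630 in MT_Fe_Ov, and the part of these differences in the D10 values was not tested.

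**Figure D4:**
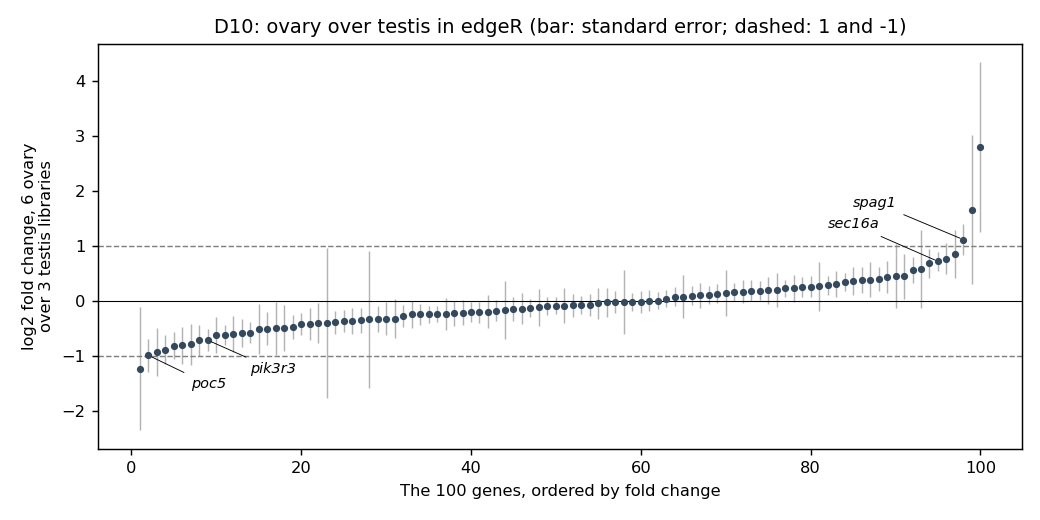
The 100 genes ordered along the x axis by their D10 log2 fold change, 6 ovary over 3 testis libraries, on the y axis. Bars are standard errors and dashed lines mark 1 and -1. The genes lie on both sides of 0, and 4 lie past the dashed lines.

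Each kind of ovary was also compared with the testis at D10, with 0 of the 100 genes called in both cases. For WT_Fe_Ov, edgeR called 0.00814% of all genes, 5 of the 100 had an unadjusted p under 0.05 against 7.61% of all genes, and DESeq2 called 0 against 0.684%. For MT_Fe_Ov, edgeR called 0.11% of all genes, 13 of the 100 had an unadjusted p under 0.05 against 16.3%, and DESeq2 called 1, which was spag1, against 4.08%. Without D10 WT_Ma_Te replicate 1 the edgeR counts became 1, against 3.88% of all genes, and 10, against 14.7%. The 2 comparisons share the testis libraries.

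At D10, 7 of the 100 genes had a mean under 1 FPKM in all 3 groups, namely fbxo43, pask, rnf32, LOC111947968, LOC105358284, LOC101157524 and LOC105354554. The lncRNA gene LOC111947968 had 0 to 2 counts in the D10 libraries, 2 to 6 in the D30 ovaries, 0 or 1 in the D30 testis and 34, 13 and 20 in the D120 testis. The level of LOC101166590 varied widely within groups at D10, at 2.46, 126 and 36.1 in WT_Fe_Ov and 3.68, 1.94 and 127 in the testis, against 3.20, 6.26 and 3.72 in MT_Fe_Ov.

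The ovaries with and without a Y chromosome were compared at each stage. The score takes the less different of the ovaries, so that a gene with a large difference between them was less likely to be chosen at D30 and D120. The D30 and D120 counts are therefore a description. At D10, edgeR called 0 of the 100 genes between WT_Fe_Ov and MT_Fe_Ov, against 0.374% of all genes, with 18 at an unadjusted p under 0.05, against 18.8%, and 0 by DESeq2, against 1.68%. At D30 it also called 0, against 1.68% of all genes, with 19 at an unadjusted p under 0.05, against 19.7%, and 0 by DESeq2, against 3.02%. At D120 it called 0, against 0.104% of all genes, with 5 at an unadjusted p under 0.05, against 7.02%, and 1 by DESeq2, against 0.493%.

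At D30, atl2 and LOC101167490 had an adjusted p under 0.05 with a change under 1 on the log2 scale, and both were higher in MT_Fe_Ov. The share of all genes with such a result was not counted, so nothing is read from their number. The rule used the D30 ovary means, so the values of both genes are given as a description. For atl2 the log2 fold change, WT_Fe_Ov over MT_Fe_Ov, was -0.77 ± 0.13 (edgeR adjusted p = 0.0292). For LOC101167490, at 62.2, 53.4 and 56.2 FPKM in WT_Fe_Ov and 96.1, 124 and 87.7 in MT_Fe_Ov, it was -0.89 ± 0.14 (edgeR adjusted p = 0.0212). The single exocrine pancreas marker found was at 75.6 to 132 FPKM in D30 WT_Fe_Ov and 0.263 to 2.48 in D30 MT_Fe_Ov, and its part in these values was not tested.

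Ovary libraries of 1 group differed widely for LOC101157524. Its FPKM was 5.87 to 7.76 in D30 WT_Fe_Ov and 2.79, 24.1 and 46.5 in D30 MT_Fe_Ov, and 46.6, 45.6 and 88.4 in D120 WT_Fe_Ov and 12.3, 50.3 and 0.160 in D120 MT_Fe_Ov. Without D30 MT_Fe_Ov replicate 1, edgeR called it between the D30 ovaries, as it did 1.01% of all genes. At D120, LOC101168884 was at 1.94, 2.49 and 3.08 in WT_Fe_Ov and 1.44, 1.00 and 1.03 in MT_Fe_Ov, with a log2 fold change of 1.11 ± 0.24 (edgeR adjusted p = 0.175), and was the gene called by DESeq2. The rule used the ovary means of both stages, so these calls are a description.

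Better known programs of the gonads were read from fixed lists. Lists of 100 genes for synapsis, recombination, the piRNA pathway, oocyte factors, the sperm flagellum and gonadal somatic cells held none of the 100 genes with the reversed difference. That set is 100 of the 25601 genes with a count, so nothing is read from this absence. Of the list genes, 0 were called higher in ovary at D30 and higher in testis at D120, which is close to the 0.935% of all genes with both calls. At D30 edgeR called 16 of them higher in ovary and 60 higher in testis, against 22% and 36.5% of all genes. At D120 it called 18 and 60, against 23.8% and 32%. Of the 24 flagellum and cilium genes, 21 were called higher in testis at D30 and 22 at D120. Of the 9 oocyte factors, 8 were called higher in ovary at both stages. The lists were chosen with earlier results of these data known.

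The 100 genes lay on all 24 chromosomes, with 9 on chromosome 16, 8 on chromosome 1 and 7 on chromosome 13. In 14 cases neighbouring genes of the set lay within 500 kb of each other, and in 3 cases within 100 kb. The numbers for other sets of 100 genes were not computed, so no clustering is read from these counts. On chromosome 16, spag1 (5938243 to 5963458) and fbxo43 (5963736 to 5969101) are 277 bases apart on ASM223467v1 and both overlap rgs22. On chromosome 1, LOC105356696 (1286404 to 1301866) and LOC111948195 (1301876 to 1303487) are 9 bases apart. Reads were counted without strand, so that reads of overlapping or abutting genes may have been assigned to the neighbour. Of the 99 genes with a position, 21 overlapped another annotated gene, against 22.1% of all genes. The median exon length was 3908 bases over the 100 genes and 2623 bases over all genes with a usable value.

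Which genes ranked among the first 100 depended on the scaling of the libraries. With FPKM rescaled by TMM factors, an alternative chosen after the data were seen, 28 of the 100 genes were again in the first 100 and 62 in the first 500. All 100 kept a score above 0, as 2121 genes then did. The factors scale all genes of a library alike. They raised the D30 differences and lowered the D120 differences by less than the lowest score of 0.58. The outcome was thus fixed by the choice of the genes, and nothing is read from it. The rescaling moved the median D30 difference of all genes by 0.38, from -0.54 to -0.16, and that of the 100 genes from 0.81 to 1.68. Their median D120 difference moved from 0.92 to 0.61. The first gene by the rescaled score was trove2, at 1.92.

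**Figure D5:**
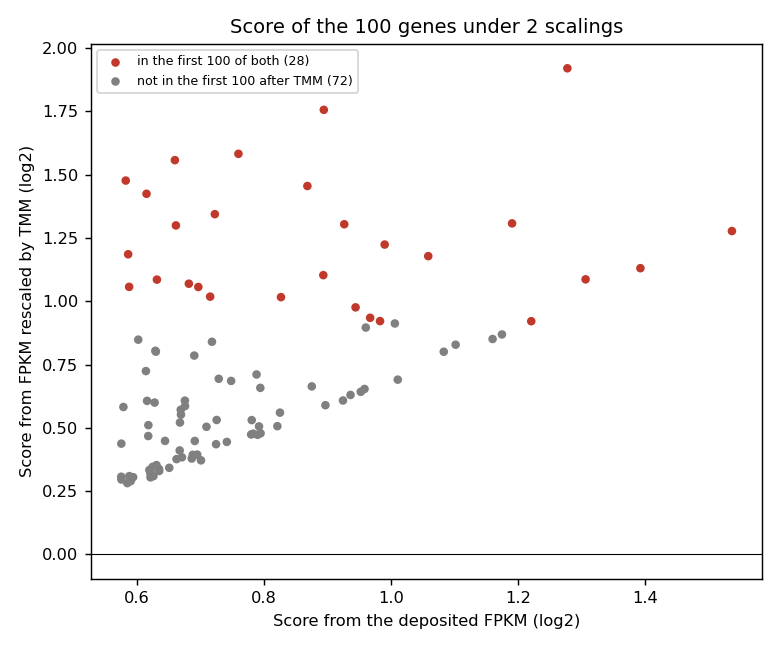
Score of the 100 genes from the deposited FPKM on the x axis and from FPKM rescaled by TMM on the y axis, both in log2 units. Every gene stayed above 0, which the choice of the genes had fixed. The 28 red points are those within the first 100 under both scalings.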

How the data were processed

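Poly(A) RNA of 27 medaka gonad samples was sequenced on the HiSeq 2000. The authors used fastp for trimming, STAR for alignment to ASM223467v1 and featureCounts for read pairs per gene, without strand and without multiply mapped reads. The deposited counts are raw. The deposited FPKM were made by the authors with DESeq2 and use the total count of the library. Group and replicate number were taken from the labels, which call the mutants DMY knockout males and the tissue only gonad. The group names, with ovary and testis, are those of the authors. Of the symbols, 9 had been turned into dates.

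Scores were computed with a pseudocount of 1 in FPKM. Tests of genes with 1 or more counts in the compared libraries used edgeR 4.0.16 (R 4.3.3) with TMM factors and quasi-likelihood, and p-values were adjusted after Benjamini and Hochberg. A call needed an adjusted p no higher than 0.05 and a log2 fold change no smaller than 1 in size. The standard error was derived by dividing the log2 fold change by the root of the F statistic. The scripts were tested on simulated data. DESeq2 1.42.0 was an alternative, with size factors, filters, leaving out libraries and the replicate number as a block.

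Named genes were the 10 highest scores with a symbol, the 5 highest D30 ovary and D120 testis means, and 3 genes on each side of the threshold. Other genes were named after their values were seen. The members and lists were chosen with earlier results of these data known.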

Additional observations from a re-analysis of the deposited data

Results flagged for a closer look

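Among the 6 ovary libraries of a stage, 60 sets of FPKM values of named genes were examined for a library far from the others, of which chance gives about 1 in 20. In 2 sets a library was flagged, which is not above that rate, so nothing is read from their number. Each set joined both kinds of ovary, so the rate is approximate. For camsap1, D30 MT_Fe_Ov replicate 3 was at 10.8, with the next ovary library at 7.39 and the lowest at 6.18. For spag1, D30 MT_Fe_Ov replicate 2 was at 18.3, with the next at 24.6 and the highest at 26.4.

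For xrn1 every D30 ovary library was above every D30 testis library in CPM scaled by TMM, and every D120 testis library was above every D120 ovary library. Its log2 fold change, ovary over testis, was 1.20 at D30 and -1.12 at D120. The gene was picked for these opposite calls, and the difference between the stages was not tested. Its D30 CPM scaled by TMM was 57.2 to 62.8 in WT_Fe_Ov, 85.8 to 94.3 in MT_Fe_Ov and 32.4 to 35.1 in the testis. The TMM factors were 0.775 to 0.802 in D30 WT_Fe_Ov and 1.49 to 1.50 in the D30 testis. The order of WT_Fe_Ov and testis at D30 thus depends on the scaling.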

How the results depend on the processing

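Of the 100 genes, 26 were chosen again with CPM scaled by TMM, 35 with FPKM rescaled by DESeq2 size factors, 28 with FPKM rescaled by TMM and 65 with MT_Fe_Ov as the sole ovary. Leaving out 1 library kept 84 to 98, with the lowest count without D30 MT_Fe_Ov replicate 3. The number with a score above 0 was 99 without D30 MT_Fe_Ov replicate 2, where mir103-2 had a score of 0, and 99 without D120 WT_Ma_Te replicate 3, where LOC101155876 had -1.61. The score of LOC101155876 ran from -1.61 to 0.63 when 1 library was left out. At D10, DESeq2 called 2 of the genes for both ovaries against testis and 1 for MT_Fe_Ov against testis, and at D120 it called 1 between the ovaries. Leaving out 1 library gave 0 to 8 calls at D10 for both ovaries, 0 to 1 for WT_Fe_Ov, 0 to 10 for MT_Fe_Ov and 0 between the ovaries. It gave 0 to 1 between the ovaries at D30 and 0 at D120, and 75 to 77 called list genes at D30 and 77 to 79 at D120. With the replicate block the count of the 100 genes called stayed at 0 in each comparison. The numbers were not used to pair the samples in the main tests. Correlations of the deviations of same-numbered samples ran from -0.134 to 0.213. Samples with different numbers were not compared in this way, so a pairing was not excluded. Direction was kept by the other scores recomputed for named genes, which the same values had chosen, so nothing is read from it. Genes with few reads, such as mir103-2, are limited by depth.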
